A study of Mus musculus with 8 samples.

Results

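The CD300 receptors and the other inhibitory receptors of myeloid cells were read here as 10 genes: Cd300a, Cd300lb, Cd300ld, Cd300lf, Cd300e, Pirb, Cd33, Siglece, Sirpa and Ptpn6. Every gene probe whose name, or whose RefSeq accession, pointed to one of these genes was taken, which gave 17 of the 60273 probes on the array. The study sorted donor-derived myeloid cells from the ischemic brain of bone marrow chimeras, 7 days after the middle cerebral artery had been occluded for 30 min and reopened. The hosts were wild-type and the donor marrow carried the fluorescent protein DsRed in both groups. The donors of the first group were Psgl1+/+ (wild-type arrays 1 to 4) and those of the second group Psgl1-/- (knockout arrays 5 to 8), where Psgl1 is the gene Selplg, whose product PSGL-1 binds selectins. In both groups the sorted cells were negative for propidium iodide, a stain of dead cells, DsRed+ and CD11b+, with high CD45 and without Ly6G or CD3, so that the microglia of the hosts, which carry no DsRed, were not selected. The labels do not say how many animals gave a sample, so a p-value here reflects only how these samples vary among themselves, part of which may be technical.

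Immunoreceptor tyrosine-based inhibitory motifs (ITIMs) are short tyrosine motifs in the tail of a receptor. When Src family kinases phosphorylate them, they recruit the phosphatases SHP-1 (Ptpn6), SHP-2 (Ptpn11) or SHIP-1 (Inpp5d), which dampen signals from activating receptors on the same cell. Many such receptors come in pairs, in which a close relative with a short tail signals through the adaptor DAP12 (Tyrobp) or the Fc receptor gamma chain (Fcer1g). The CD300 genes are an example: CD300a and CD300lf carry ITIMs and bind lipids such as phosphatidylserine, whereas CD300lb, CD300ld and CD300e belong to the activating type. PIR-B, Siglec-E and SIRPA are inhibitory receptors for MHC class I, sialic acid and CD47. The 10 genes therefore include inhibitory receptors, activating partners and a phosphatase, and are not all ITIM receptors.

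Several results turn on which probe read a gene, so the probes concerned are shown first, as they stand on the array and read 5′ to 3′. The first 2 belong to Pirb: NM_011095.2 is named by its messenger RNA, and ENSMUST00000137474 reads across the letters GTAAGT, shown in capitals. These letters are the usual start of an intron, and were held by 402 of 60273 probes (0.667%) on the printed strand. The single probe for Cd300lf follows, and then the probes of Cd300a and Ptpn6 that went the other way from the brighter probe of their gene.
Pirb NM_011095.2: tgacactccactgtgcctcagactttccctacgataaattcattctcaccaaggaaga
Pirb ENSMUST00000137474: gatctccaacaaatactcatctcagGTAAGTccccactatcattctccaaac
Cd300lf NM_001169153.1: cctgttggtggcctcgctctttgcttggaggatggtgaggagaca
Cd300a XM_006533068.1: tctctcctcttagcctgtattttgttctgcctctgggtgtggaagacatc
Ptpn6 S63764: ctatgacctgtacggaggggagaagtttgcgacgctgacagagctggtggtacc
The remaining Pirb probe, ENSMUST00000078451, is shown only by the run of 27 bases that it shares with probes of other genes, in capitals.
Pirb ENSMUST00000078451, shared run: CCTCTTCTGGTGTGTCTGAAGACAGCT

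Values are given as the processed intensity of the scanner, which is linear and in arbitrary units, and as its log2 after the 75th percentile of each array was subtracted, so that a log2 value of 0 is the 75th percentile. Differences are knockout minus wild-type on that log2 scale. The files give a position on mouse build mm9 for 6 of the 17 probes, printed beside them, and mark the other 11 as unmapped; exon and intron annotation of that build was not used here. The share of spots well above background was 76.1% to 88.2% per array. It was 86.2% to 88.2% in the first row of the slide (wild-type 2 and 4, knockout 6 and 8) and 76.1% to 81.6% in the second. Arrays of the same group correlated at 0.75 to 0.79 over all genes tested, against 0.72 to 0.79 for arrays of different groups. Selplg, the targeted gene, had log2 values of 4.24, 3.13, 3.51 and 6.19 in the wild-type group and 3.70, 3.90, 3.61 and 3.33 in the knockout group. The groups overlapped (difference -0.63, SE 0.64, limma adjusted p = 0.684), and without wild-type 4 the difference was 0.01. The position of its probe relative to the deletion is not known here, so wild-type and knockout below name the arrays as labelled. Over all 42312 genes tested the median difference was -0.33, and 68.9% of genes had a difference below 0.

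No member passed the limma threshold of an adjusted p of 0.05 (0 of 10 genes, smallest adjusted p = 0.459), where 0.00236% of all genes tested, a single gene, passed it. At an unadjusted p under 0.05, 1 of 10 members was lower, Cd300a, and none was higher, against 10.8% of all genes in either direction. Of the 10 members, 6 had a negative and 4 a positive difference, with a median of -0.50 beside the -0.33 of all genes. These medians were -0.14 and -0.17 with quantile normalization, and -0.12 and -0.01 with cyclic loess. The groups did not overlap for 1 of 10 members, Pirb by its brightest probe, with all knockout arrays lower, which 10.8% of all genes also showed. Of the 17 probes, 16 were tested, 14 were well above background on all 8 arrays and 1 on no array. Within a group the members had a median SD of 1.42 log2 units, against 0.76 over all genes tested.

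**Figure D1:**
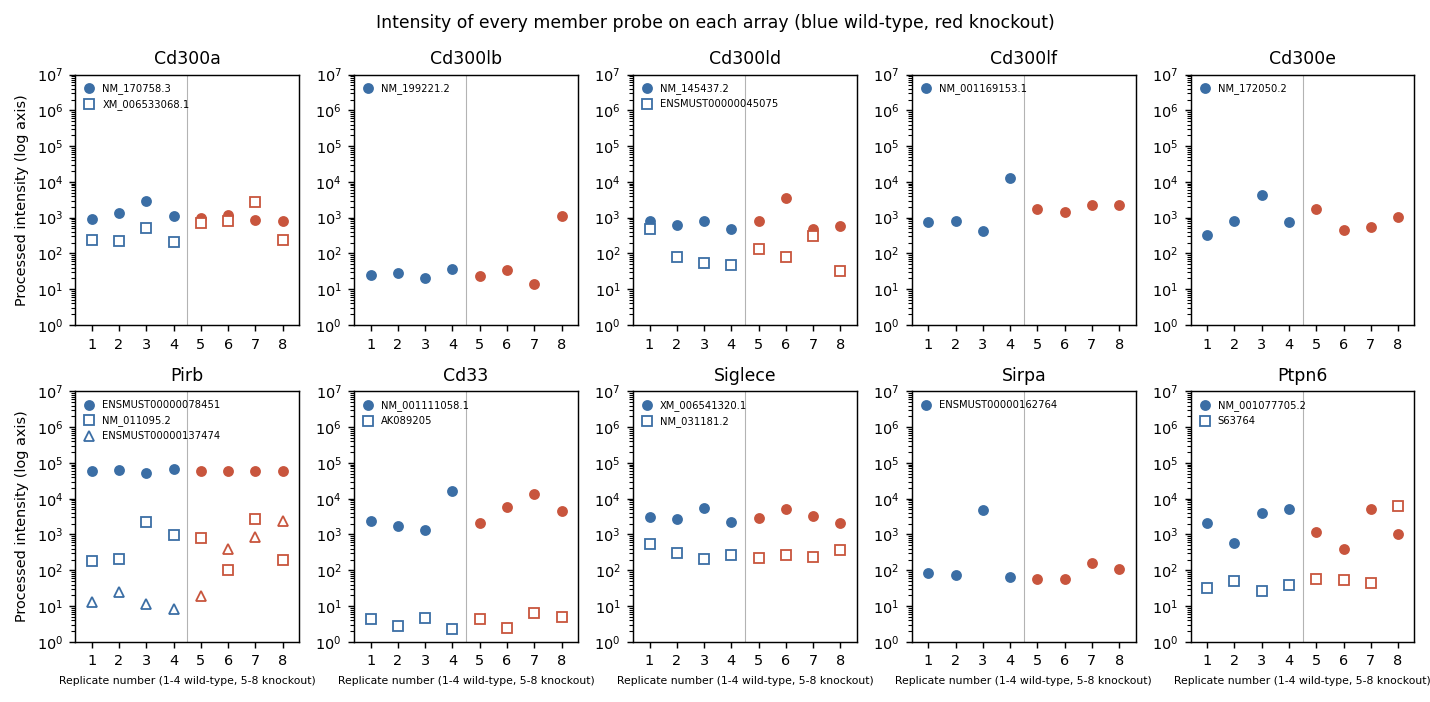
Processed intensity (log axis) of all 17 member probes on the 8 arrays, by replicate number, with filled circles for the brightest probe of a gene and open symbols for its other probes. Single arrays stand far above the rest for Cd300lb, Cd300lf, Sirpa and Ptpn6 S63764, and the brightest Pirb probe lies between 53630 and 68870.

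Of the inhibitory CD300 receptors, Cd300a binds phosphatidylserine and phosphatidylethanolamine on dying cells. Its brighter probe (NM_170758.3) had intensities of 932.5, 1312, 2943 and 1086 in the wild-type group and of 1006, 1211, 874 and 830 in the knockout group. Wild-type 3 was the highest of all, and on the scaled values wild-type 1 alone lay within the knockout range. The log2 mean was 1.14 ± 0.79 (SD, n = 4) for wild-type and 0.14 ± 0.29 (SD, n = 4) for knockout, differing by -0.997 (SE 0.42, 95% interval -1.98 to -0.01, limma unadjusted p = 0.0476, adjusted p = 0.459). Without wild-type 3 the difference was -0.62.

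The other Cd300a probe (XM_006533068.1), whose letters are given above, had intensities of 234, 218.5, 502 and 215 in the wild-type group. In the knockout group it had 700.5, 800.2, 2713 and 234.5. Here knockout 7 was highest, and 3 of 4 knockout arrays lay above every wild-type array by intensity. On the scaled values knockout 5 (-0.295) lay just below wild-type 3 (-0.284), and only knockout 6 and knockout 7 lay above every wild-type array. Its difference was 1.04 (SE 0.76, limma adjusted p = 0.576 over all probes, of which 0.0176% passed 0.05), and without knockout 7 it was 0.41. The probes of Cd300a thus differed in sign, and their mean gave a difference of 0.02.

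Cd300lf, an inhibitory receptor for phosphatidylserine and ceramide, had intensities of 749, 785, 419 and 13090 in the wild-type group and of 1774, 1412, 2252 and 2190 in the knockout group. Wild-type 4 stood 9.21-fold above the next array on the scaled values, while the other 3 wild-type arrays lay below all 4 knockout arrays. The log2 mean was 1.07 ± 2.40 (SD, n = 4) for wild-type and 1.09 ± 0.31 (SD, n = 4) for knockout, and the difference was 0.02 (SE 1.09, 95% interval -2.50 to 2.55, limma adjusted p = 0.994). Without wild-type 4 the difference was 1.21, at a limma unadjusted p of 0.00579 and an adjusted p of 0.601. That array is singled out here by its own value, so no test is read from this run. Without wild-type 1, wild-type 2 or wild-type 3 the difference was -0.29, -0.31 or -0.51.

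Among the activating-type CD300 genes, single arrays again decided the difference. Cd300lb, which signals through DAP12, had 24.6, 28.8, 20.8 and 37.8 in the wild-type group and 23.9, 35.5, 13.8 and 1113 in the knockout group. Knockout 8 was 16.1-fold above the next array on the scaled values, and the remaining 7 arrays were close to background, with 3 of 4 arrays of each group called well above it. The difference was 0.68 (SE 1.26, limma adjusted p = 0.833), and without knockout 8 it was -0.68.

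Cd300ld, a receptor that signals through the Fc receptor gamma chain, had 812, 636, 824 and 473 in the wild-type group and 810, 3609, 483 and 577 in the knockout group for its brighter probe (NM_145437.2). Knockout 6 was highest and the other 7 arrays overlapped. The difference was 0.04 (SE 0.64, limma adjusted p = 0.982), and -0.60 without knockout 6. The other probe, which the files place at chr11:114843640-114843699 of mm9, had 473, 80.5, 54.2 and 48.3 in the wild-type group and 130, 80.5, 303 and 32.4 in the knockout group. It was highest on wild-type 1, with a difference of -0.45 (SE 0.92, limma adjusted p = 0.849 over all probes) that became 0.26 without that array.

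Cd300e, a receptor of monocytes, had 319, 793, 4412 and 771.5 in the wild-type group and 1722, 450, 534 and 1041 in the knockout group. Wild-type 3 was again the highest array, and the remaining arrays overlapped. The difference was -0.71 (SE 0.85, 95% interval -2.69 to 1.27, limma adjusted p = 0.735), and 0.04 without wild-type 3. In the RefSeq table of assembly GRCm38.p6, used only for names and order, the 5 CD300 members lie on chromosome 11 in a row of 11 protein-coding genes from Cd300a to Cd300lf. Their brightest arrays were wild-type 3 (Cd300a and Cd300e), wild-type 4 (Cd300lf), knockout 6 (Cd300ld) and knockout 8 (Cd300lb), so 4 different arrays were brightest over these 5 neighbouring genes.

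**Figure D2:**
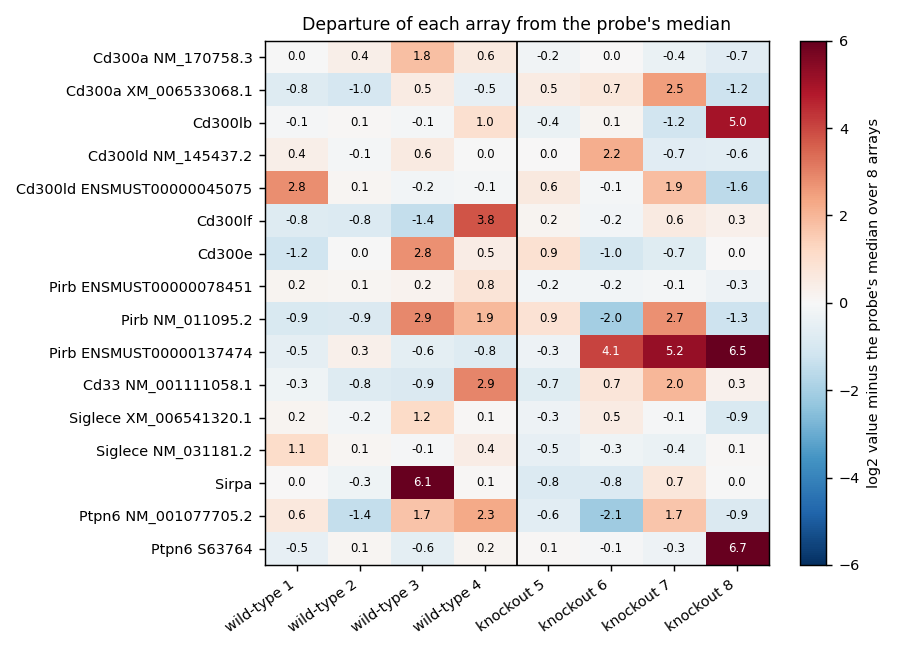
Log2 value of each of the 16 tested member probes on each array, minus that probe's median over the 8 arrays, from blue (below) to red (above). The departures of Sirpa on wild-type 3, of Cd300lb and Ptpn6 S63764 on knockout 8 and of Cd300lf on wild-type 4 are single fields in their rows, while Pirb ENSMUST00000137474 departs on knockout 6, 7 and 8.

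Pirb encodes PIR-B, a receptor for MHC class I and for the myelin proteins Nogo, MAG and OMgp. Its 3 probes differed in the arrays on which they were bright. ENSMUST00000078451 and NM_011095.2 both had negative differences (-0.51 and -0.68). That of ENSMUST00000137474 was positive but is not read, as given below. The messenger RNA probe (NM_011095.2) had intensities of 182, 200.5, 2214 and 992 in the wild-type group and of 777, 104, 2724 and 197 in the knockout group. Wild-type 3, wild-type 4, knockout 5 and knockout 7 were high and the other 4 arrays low, in both groups. The difference was -0.68 (SE 1.30, 95% interval -3.71 to 2.35, limma adjusted p = 0.838 over all probes), and 0.03 without wild-type 3. This probe shares a run of 20 bases with a probe for NM_008848.1, an accession that the tables used here do not name, so its reading is uncertain where that transcript is present. Shared runs were sought among probes and promoter windows only, so other transcripts that it may read are not known here.

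The Pirb probe across GTAAGT (ENSMUST00000137474, chr7:3668688-3668742 of mm9, minus strand) had 13.1, 25.4, 11.1 and 8.50 in the wild-type group. In the knockout group it had 19.1, 398, 869 and 2342. It was well above background on 1 wild-type array and on 3 knockout arrays, and knockout 5 lay within the wild-type range. The log2 mean was -5.59 ± 0.48 (SD, n = 4) for wild-type and -1.32 ± 2.95 (SD, n = 4) for knockout. The probe reached the filter of 4 arrays mostly through the knockout arrays, and most wild-type values are not well above background, so no fold or test is read from this difference (limma adjusted p = 0.478 over all probes). On knockout 8, where this probe was brightest, NM_011095.2 was low at 197.

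The brightest Pirb probe (ENSMUST00000078451, chr7:3663046-3663105 of mm9, minus strand) had 59990, 62810, 53630 and 68870 in the wild-type group and 58610, 59260, 58450 and 59410 in the knockout group. These intensities overlapped. After scaling, the log2 values were 6.44, 6.39, 6.46 and 7.03 against 6.09, 6.09, 6.13 and 5.95, without overlap (difference -0.51, SE 0.24, limma adjusted p = 0.463). The 75th percentile itself was 526 to 749 in the wild-type group and 833 to 959 in the knockout group. The difference became 0.10 after quantile normalization, 0.08 after normexp background correction with quantile normalization and 0.11 in the deposited value table.

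This probe shares 20 bases or more with 11 probes named for other genes, among them Furin, Pkd2, Phyhd1, Luc7l2 and Nav2, and with 70 of 32851 RefSeq promoter windows (0.213%). Of the 27-base run shown above, the whole is shared with AK139658. No other member probe shared such a run with a promoter window, and only Pirb NM_011095.2 shared one with a further probe. The 11 probes had median intensities of 308.5 to 52410, with a median of 15850, where the median over all probes was 248 on average. From background knowledge, the run has the letters of the B2 family of short interspersed repeats, although no repeat annotation was used here. This probe represents Pirb in the counts over genes given above. With the brightest probe that has a RefSeq accession in its place, which is NM_011095.2, the members' median was -0.58 and no member passed the threshold.

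**Figure D3:**
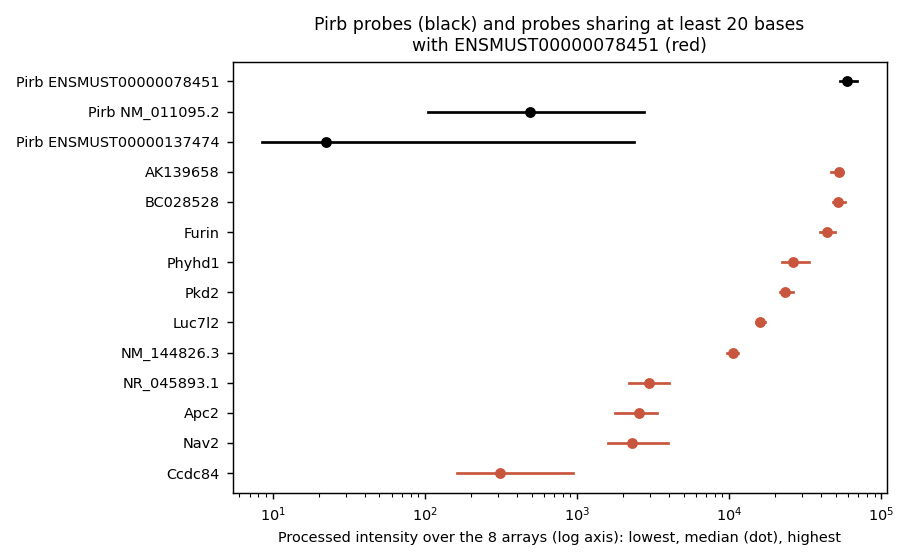
Lowest, median (dot) and highest processed intensity over the 8 arrays (log axis) of the 3 Pirb probes in black and, in red, of the 11 probes of other genes that share at least 20 bases with ENSMUST00000078451. The 11 probes have medians of 308.5 to 52410, and the other 2 Pirb probes range from 104 to 2724 and from 8.50 to 2342.

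The Siglecs are lectins that bind sialic acid on the cell's own surface and on its neighbours. Cd33, a Siglec of the myeloid lineage, had intensities of 2310, 1733, 1329 and 16010 in the wild-type group and of 2046, 5684, 13200 and 4563 in the knockout group (NM_001111058.1). Wild-type 4 and knockout 7 were the highest, and among the other 3 wild-type arrays lay knockout 5 alone. The log2 mean was 2.25 ± 1.81 (SD, n = 4) for wild-type and 2.55 ± 1.13 (SD, n = 4) for knockout, differing by 0.30 (SE 0.96, 95% interval -1.94 to 2.54, limma adjusted p = 0.907). Without wild-type 4 it was 1.19, at an adjusted p of 0.602. The second Cd33 probe (AK089205, chr7:50785722-50785781 of mm9) was not well above background on any array, at 2.28 to 6.22, and was not tested.

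Siglece, the main inhibitory Siglec of mouse neutrophils, monocytes and macrophages, had an SD of 0.58 log2 units in either group by its brighter probe. This probe (XM_006541320.1) had 3137, 2703, 5516 and 2220 in the wild-type group and 2858, 5025, 3256 and 2095 in the knockout group. No array stood apart and the groups overlapped (difference -0.48, SE 0.42, 95% interval -1.45 to 0.48, limma adjusted p = 0.626). The other probe (NM_031181.2) had 538, 298, 210 and 262 against 222, 262, 234 and 372. It was also lower on average in the knockout arrays, with a difference of -0.66 (SE 0.32, limma adjusted p = 0.485 over all probes). Siglece was the only one of 5 members with several tested probes whose probes all had the same sign. Pirb differed in sign only through ENSMUST00000137474, whose difference is not read. Over all genes tested, 68.9% of differences were below 0. Both Siglece differences stayed negative under every alternative run. Their size did not hold: the first was -0.20 without wild-type 3 and -0.14 in the first slide row alone, and the second -0.43 without wild-type 1.

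Sirpa encodes the receptor for CD47, the signal that restrains phagocytosis of healthy cells. It was read by 1 probe (ENSMUST00000162764, chr2:129446667-129446726 of mm9), which has a stop codon in each of its 3 reading frames. The intensities were 82.7, 72.5, 4839 and 63.4 in the wild-type group and 56.0, 56.7, 157 and 108 in the knockout group. Wild-type 3 alone was bright, 42.0-fold above the next array on the scaled values, and the other 7 arrays overlapped. The difference of -1.73 (SE 1.41, 95% interval -5.02 to 1.55, limma adjusted p = 0.606) was -0.20 without wild-type 3.

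Ptpn6 encodes SHP-1, the phosphatase that the phosphorylated ITIMs recruit in blood cells. Its brighter probe (NM_001077705.2) had 2131, 562, 4018 and 5053 in the wild-type group and 1138, 398, 5317 and 1066 in the knockout group. Knockout 7, wild-type 4 and wild-type 3 were high, wild-type 2 and knockout 6 low, and the groups overlapped. The log2 mean was 1.80 ± 1.62 (SD, n = 4) for wild-type and 0.53 ± 1.58 (SD, n = 4) for knockout, differing by -1.27 (SE 1.02, 95% interval -3.65 to 1.1, limma adjusted p = 0.601). It was -2.01 without wild-type 2 and -0.72 without knockout 6.

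The second Ptpn6 probe (S63764), shown above, is placed by the files at chr6:124678979-124682468 of mm9. It had 31.7, 51.6, 26.1 and 37.5 in the wild-type group and 57.8, 53.1, 43.9 and 6290 in the knockout group. Knockout 8 was 91.9-fold above the next array on the scaled values, while the brighter Ptpn6 probe had an intensity of 1066 there, below its level on 5 of the other 7 arrays. The difference was 1.80 (SE 1.52, limma adjusted p = 0.625 over all probes), and 0.11 without knockout 8.

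**Figure D4:**
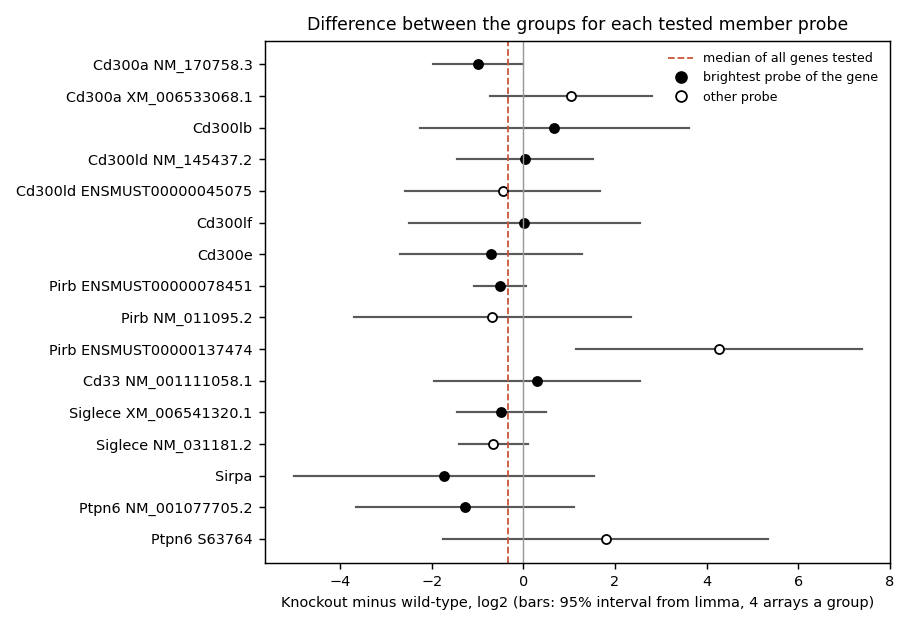
Knockout minus wild-type difference (log2) of the 16 tested member probes with the 95% interval from limma, filled for the brightest probe of a gene and open for its other probes, with the median of all genes tested (-0.33) as a dashed line. All intervals but those of Cd300a NM_170758.3 and Pirb ENSMUST00000137474 include 0, neither passed the adjusted threshold, and the latter, whose wild-type values were well above background on 1 of 4 arrays, is not read as a difference.

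Single bright arrays were then counted. In 4 of 16 tested member probes (Cd300lb, Cd300lf, Sirpa and Ptpn6 S63764) the brightest array stood at least 3 log2 units, or 8-fold, above the next, against 8.08% of the 51203 probes tested. This limit of 3 units was chosen after the values were seen, and the counts were not tested against each other. No spot of a member probe was marked as an outlier by the scanner software. Over all probes with such a gap, each of the 8 arrays was the bright one for 11.1% to 13.7%. Over all probes, with or without a gap, wild-type 4 was the brightest array for 27.1% after scaling and each other array for 8.17% to 13.0%, and wild-type 4 had the lowest 75th percentile (526).

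Where a gene had several tested probes, these differed in sign for 4 of 5 members (Cd300a, Cd300ld, Pirb and Ptpn6). For Pirb this rests on ENSMUST00000137474, whose difference is not read. Pirb ENSMUST00000078451 and NM_011095.2 were both negative (-0.51 and -0.68). The slide held 2 rows of 4 arrays, each with 2 arrays of either group, and the members were also compared within a row. The rows differed in the share of spots well above background, as given above. In the first row (wild-type 2 and 4 against knockout 6 and 8) Cd300lf had a difference of -1.41 and in the second row of 1.45, and Cd33 had -0.59 and 1.19. Cd300lb had 2.05 and -0.70, and Pirb NM_011095.2 had -2.18 and 0.82. Cd300a NM_170758.3 kept its sign with -0.79 and -1.2. Slide columns 1 and 2 held the wild-type arrays and columns 3 and 4 the knockout arrays, so column and group cannot be told apart.

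Of the markers of monocytes and macrophages, 12 of 12 were well above background on all arrays, Csf1r, Itgam and Lyz2 among them. This does not set the cell type apart on these arrays, since 7 of 7 oligodendrocyte, 8 of 8 conventional dendritic, 4 of 4 erythroid and 6 of 7 neuron markers were so too. The neuron list had means of 1.11 to 1.59 in the wild-type group and of 0.62 to 1.40 in the knockout group. The mean log2 value of the monocyte and macrophage list was 0.22, 0.21, 2.31 and 2.13 in the wild-type group and 0.76, 0.48, 3.26 and 1.87 in the knockout group. It was highest on knockout 7, wild-type 3 and wild-type 4, the arrays on which Ptpn6 NM_001077705.2 was also highest, and Pirb NM_011095.2 was high on these same 3 arrays. Other member probes did not follow this order. Cd300lf (log2 value -0.54) and Cd33 NM_001111058.1 (1.12) were lowest of all arrays on wild-type 3, although Cd33 was highest on wild-type 4 and knockout 7. Cd300ld NM_145437.2 was lowest on knockout 7 (-0.79). The part of the monocyte and macrophage content in these values was not tested. In a sorted bulk sample, fewer cells of a type and less RNA per cell cannot be told apart. Neutrophil markers, whose Ly6G was sorted against, had list means of -2.03 to -0.67 and of -1.07 to 0.04, with 11 of 12 above background on all arrays. Ly6g itself was well above background on 3 of 4 wild-type and 4 of 4 knockout arrays. Of the 12 neutrophil markers, 7 had a positive and 5 a negative difference. S100a9, named after its values were seen, had -3.83, -0.51, 1.87 and -5.06 in the wild-type group and 2.99, 2.07, 3.42 and 3.15 in the knockout group. Its groups did not overlap, which 0.65% of all genes showed in that direction (difference 4.79, SE 1.43, limma unadjusted p = 0.0109, adjusted p = 0.459). Csf3r was lower without overlap (difference -0.40), as were 10.8% of all genes. S100a8 had a difference of 0.59 with overlapping groups. The part of neutrophil content in the members' values was not tested. T cell markers had means of -2.26 to -1.61 and of -2.89 to -2.06, with 6 of 8 above background on all arrays, and microglia markers, with 8 of 8, had means of 0.44 to 2.81 and of 1.33 to 2.62. Each marker of these lists that had a probe was well above background on some array.

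Of 84 related genes listed, 75 had a probe and 74 were tested, and 0 of 74 passed the limma threshold in either direction. At an unadjusted p under 0.05, 3 were higher and 4 lower in the knockout arrays, against 688 higher and 3883 lower of all 42312 genes, or 10.8% in all, so these counts are near the background. The median difference of the related genes was -0.03, beside the -0.33 of all genes. Of 8 further CD300 genes, 3 had a probe. Cd300lg, a CD300 relative of endothelial cells, was lower in every knockout array, as in 10.8% of all genes. Its log2 values were 4.15, 4.02, 4.16 and 4.26 against 3.72, 3.78, 3.62 and 3.45 (difference -0.50, SE 0.21, limma adjusted p = 0.459). The difference was -0.25 with quantile normalization and -0.15 with cyclic loess, and its 2 other probes had differences of -0.91 and 0.02. Cd300ld4, another member of the chromosome 11 row, had a difference of -0.61 (SE 0.77, adjusted p = 0.746), and -0.009 without wild-type 3.

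Among 20 tested genes of other ITIM receptors, 1 had a higher and 2 a lower value at an unadjusted p under 0.05. In either direction 10.8% of all genes passed, so the count over both directions is near the background. Pecam1, an adhesion receptor with ITIMs, had log2 values of -0.92, -0.74, -0.39 and -1.12 in the wild-type group and of -1.85, -2.01, -1.79 and -1.66 in the knockout group. Siglecf, the Siglec of eosinophils and some macrophages, had -0.57, -1.70, -0.69 and -1.26 against -2.26, -2.0, -2.14 and -2.48. In both genes all knockout arrays lay below all wild-type arrays, as in 10.8% of all genes. The differences were -1.04 (SE 0.25, limma unadjusted p = 0.00349) for Pecam1 and -1.17 (SE 0.32, unadjusted p = 0.00689) for Siglecf, both with an adjusted p of 0.459. The other Pecam1 probe had a difference of -0.66.

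Lair1, an inhibitory receptor for collagen, was named after its values were seen, as the gene of this list that was higher. Its log2 values were 0.12, -2.97, -0.93 and -2.64 in the wild-type group and 3.16, -0.05, 4.84 and 1.67 in the knockout group. Only knockout 6 and wild-type 1 overlapped. The difference was 4.01 (SE 1.14, limma unadjusted p = 0.00856, adjusted p = 0.459), and its other probe had a difference of -0.45. Within the first slide row and without knockout 7 the other probe was the brighter one and represented the gene, with differences of -0.36 and 0.11.

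Of the 20 tested genes listed as activating partners, in the families of Pira, Sirpb, Trem, Siglec and C-type lectin genes, 10 had a positive and 10 a negative difference. The list also holds Siglec1 (difference -0.20), an adhesion Siglec that is not an activating partner. Siglech, a Siglec that pairs with DAP12, had log2 values of 5.76 to 6.29 in the wild-type group and of 5.23 to 5.56 in the knockout group, and Clec4d, a C-type lectin for mycobacterial lipid, of 5.06 to 5.47 and of 4.48 to 4.88. Neither gene's groups overlapped, with all knockout arrays lower, as in 10.8% of all genes. The 2 other Siglech probes had differences of -0.29 and 0.09. The gene differences were -0.54 (SE 0.23) for Siglech and -0.49 (SE 0.23) for Clec4d, with limma adjusted p of 0.459 and 0.463. With cyclic loess, a scaling under which the median of all genes was -0.01, the differences were -0.09 and -0.08.

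The adaptors of the activating receptors were bright on every array. Tyrobp (DAP12) had log2 values of 4.28, 5.15, 5.72 and 5.82 in the wild-type group and of 5.33, 5.04, 5.93 and 5.80 in the knockout group, and Fcer1g had 3.92, 4.89, 5.09 and 5.83 against 4.11, 3.92, 5.17 and 5.01. Both genes had overlapping groups, with differences of 0.28 (SE 0.41, limma adjusted p = 0.784) and -0.38 (SE 0.49, adjusted p = 0.75). The difference of Tyrobp was 0.77 with quantile normalization, 0.72 with cyclic loess, 0.79 with normexp and 0.77 in the deposited value table, and -0.04 without wild-type 1. The difference of Fcer1g changed sign under quantile normalization, cyclic loess, normexp and the deposited value table, with values of 0.009 to 0.062. Hcst (DAP10) had 1.53, 2.00, 2.37 and 2.44 against 1.04, 1.61, 1.6 and 1.2, overlapping in 1 wild-type array, with a difference of -0.73 (SE 0.30, unadjusted p = 0.0431, adjusted p = 0.459).

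Of the other phosphatases that bind ITIMs, Ptpn11 (SHP-2) had log2 values of -1.26, -1.19, 0.63 and -2.16 in the wild-type group and of -0.01, 2.63, -1.44 and 4.02 in the knockout group. Knockout 6 and knockout 8 were high and the other 6 arrays overlapped (difference 2.29, SE 1.23, limma adjusted p = 0.480), and without knockout 8 the difference was 1.39. Inpp5d (SHIP-1) had -1.13, 1.39, -1.36 and 5.70 against -1.44, -1.42, -1.21 and -0.81. Wild-type 4 stood 4.31 log2 units above the next array, the difference was -2.37 (SE 1.47, adjusted p = 0.518), and without wild-type 4 it was -0.85. The other Inpp5d probe had a difference of -1.29.

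Among the 8 kinases, Btk, a Tec family kinase downstream of ITAM receptors, had -0.94, -1.56, -1.0 and -1.75 in the wild-type group and -0.56, 1.06, 1.89 and 0.87 in the knockout group. Every knockout array was higher, which 0.65% of all genes showed in that direction. The difference was 2.13 (SE 0.52, limma unadjusted p = 0.00393, adjusted p = 0.459). Lyn, the Src family kinase that phosphorylates ITIMs in myeloid cells, had 1.45, 2.24, 3.35 and 3.54 against 3.98, 2.95, 3.69 and 3.38, with a difference of 0.86 (SE 0.52, adjusted p = 0.509), and 0.46 without wild-type 1. Its 2 other probes had differences of -0.76 and -0.37. Src had a difference of -0.44 (SE 0.22, adjusted p = 0.474), and of -0.08 with cyclic loess. Its knockout values all lay below its wild-type values, as in 10.8% of all genes.

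Of the SIRPA partners, Grb2, an SH2 adaptor, had log2 values of -1.34, 0.30, -1.22 and -0.72 in the wild-type group and of 1.13, 0.69, 0.06 and 0.41 in the knockout group. Wild-type 2 lay within the knockout range (difference 1.32, SE 0.43, limma unadjusted p = 0.0169, adjusted p = 0.459). Ptk2b, the kinase PYK2, was lower in every knockout array, as in 10.8% of all genes. Its difference was -1.0 (SE 0.44, adjusted p = 0.459), and -0.61 without wild-type 3.

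Among the 13 genes for ligands and sialic acid, 6 had a positive and 7 a negative difference. Cd47, the ligand of SIRPA, had -5.30, 2.01, -1.26 and 4.60 in the wild-type group and 1.18, 1.67, 3.54 and 2.04 in the knockout group. The wild-type arrays spanned the whole range, and the difference was 2.09 (SE 1.96, limma adjusted p = 0.653). It was 0.33 without wild-type 1 and 3.62 without wild-type 4. The other Cd47 probe had a difference of 2.36. Cmas, which activates sialic acid for transfer, had 2.17, 1.42, 2.16 and 3.69 against -0.62, -2.16, 0.81 and 2.47, where knockout 8 overlapped (difference -2.23, SE 0.99, adjusted p = 0.459). Mag, a myelin lectin and PIR-B ligand, had a difference of -0.45 (SE 0.23, adjusted p = 0.474), and of -0.62 by its other probe.

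**Figure D5:**
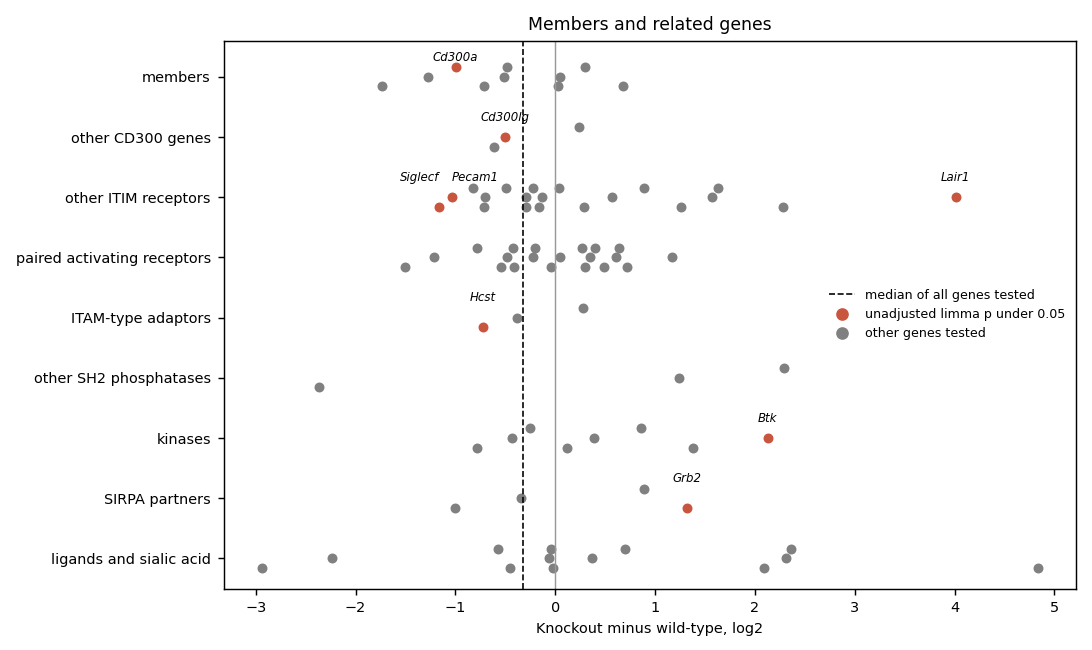
Knockout minus wild-type difference (log2) of the 10 members and 74 related genes by list, in red where the unadjusted limma p was under 0.05, with the median of all genes tested as a dashed line (vertical spread within a list only separates points). The 8 red genes are Cd300a, Cd300lg, Siglecf, Pecam1, Hcst, Btk, Grb2 and Lair1, and none passed the adjusted threshold.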

How the data were processed

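RNA was amplified with random primers and labelled with cyanine 3, per the labels' protocols. Every sample took 1 single-colour Agilent array, read with Feature Extraction 11.5.1.1, per the file headers. The deposited scanner files hold a processed intensity per spot, corrected for background within the array and not normalized between arrays, and they name mouse build mm9. A table of intensities deposited by the authors has a median of 132.9 in each column and served as an alternative. Its scale is linear by comparison with the scanner files, and its columns share 1 median, while the step that made them so is not stated. On the log2 scale its columns correlated with their own array at 0.989 or more.

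Of 61473 gene spots per array, 25 to 149 marked as outliers were left out, none was saturated, and spots of a probe were averaged. Probes were named through RefSeq accessions (31064), symbols (8935) and older symbols (420). The log2 of the 75th percentile of each array was subtracted. A gene was read by its brightest probe, and tested if 4 or more of the 8 arrays had that probe well above background. Probes lacking a value on an array (186) were left out of the tests. Groups were compared with limma 3.58.1 (lmFit, eBayes, Benjamini-Hochberg over all genes or all probes tested, two-sided) in R 4.3.3, with the package data.table (version 1.17.8) and Python 3.11.15, and the fit was tested on simulated data. The number of arrays, 4 a group, limits the precision.

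Named genes were the members with all probes, Tyrobp, Fcer1g, Ptpn11, Inpp5d, Lyn, Cd47 and Selplg, and the 2 genes of smallest p in each list of related genes. Members, lists and rules were chosen with earlier results of these data known. Alternatives were other scalings (quantile, array median, cyclic loess, normexp with an offset of 50), the value table, other filters, the mean over probes, each probe alone, outlier spots kept, the slide row as a block or alone, and each array left out. The use of the brightest probe with a RefSeq accession, the comparison of probe sequences and the naming of Lair1 were added after the data were seen. Protein sequences were not used here, so a planned search for motifs in the members' proteins was not run.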

Additional observations from a re-analysis of the deposited data

Results flagged for a closer look

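In 8 of 74 groups of 4 arrays examined (16 member probes and 21 related genes, in both groups), 1 array lay farther from the others than Dixon's 95% critical value for 4 samples allows. For normally spread values, chance flags about 1 in 20 groups. The share over all probes of the array was not computed, and many of the related genes were named by their p in these data. No excess over the other genes is therefore read from this count. The ratio of the gap to the whole range was 0.839 for Cd300lb on wild-type 4, at a log2 value of -3.80 where the other 3 lay from -4.88 to -4.70. It was 0.906 for Cd300ld ENSMUST00000045075 on wild-type 1, 0.872 for Cd300lf on wild-type 4, 0.899 for Pirb ENSMUST00000078451 on wild-type 4 and 0.837 for Cd33 on wild-type 4. For Sirpa on wild-type 3 it was 0.950, and for Ptpn6 S63764 on knockout 8 it was 0.949. Mag on knockout 5 gave 0.881, at 1.22 where the other 3 lay from 0.94 to 0.98. All 8 were high, and wild-type 4 accounted for 4 of them. Wild-type 4 had the lowest 75th percentile (526) and was the brightest array for 27.1% of all probes after scaling. By intensity Cd300lb had 37.8 there against 20.8 to 28.8 on the other wild-type arrays, and Pirb ENSMUST00000078451 had 68870 against 53630 to 62810.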

How the results depend on the processing

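No member and no related gene passed the adjusted threshold under any alternative run, including each array left out (0 to 0 for both). The count over all genes, 1 in the main setting, was 2 with array-median scaling, 4 with cyclic loess, 7 with the filter at all 8 arrays, 5 with the mean over probes, 9 with each probe on its own, 2 with the slide row as a block, 0 in either row alone, 9 with the brightest RefSeq-accession probe, and 0 to 12 with an array left out. The members' median of -0.50 ran from -0.61 to -0.20 with an array left out. It was -0.14 with quantile normalization, where all genes had -0.17, -0.12 with cyclic loess, where all genes had -0.01, and 0.02 with the mean over probes. Cd300a otherwise kept its sign, and lost its unadjusted p under 0.05 with array-median scaling, cyclic loess, the mean over probes, the slide row as a block, either row alone, and with each array left out except wild-type 1. The sign of a difference turned in the first slide row alone for Cd300lf (-1.41), Cd33 (-0.59), Cd300ld4 (0.18), Tyrobp (-0.065), Cd47 (-1.45) and Lair1 (-0.36), and in the second row alone for Cd300lb (-0.70), Cd300ld NM_145437.2 (-0.77), Pirb NM_011095.2 (0.82), Fcer1g (0.13) and Ptpn11 (-0.41). It turned for Pirb ENSMUST00000078451 with quantile normalization (0.10), normexp (0.085) and the value table (0.11), for Fcer1g with quantile normalization (0.009), cyclic loess (0.0156), normexp (0.0616) and the value table (0.0113), and with the mean over probes for Cd300a (0.022), Cd300ld (-0.20), Pirb (1.02), Ptpn6 (0.26) and Lyn (-0.0935). The cause was not tested. With an array left out, the sign turned for 9 differences, whose ranges were -0.51 to 1.21 for Cd300lf, -0.60 to 0.34 for Cd300ld NM_145437.2, -1.01 to 0.26 for Cd300ld ENSMUST00000045075, -0.68 to 1.36 for Cd300lb, -1.28 to 0.0426 for Cd300e, -1.57 to 0.026 for Pirb NM_011095.2, -0.18 to 1.19 for Cd33, -0.0402 to 0.47 for Tyrobp and -1.01 to 0.0093 for Selplg. Over all alternatives Siglech ran from -0.65 to -0.03 and Clec4d from -0.61 to -0.08. Pirb ENSMUST00000137474 ran from 2.62 to 5.66, and was not run where the filter left it out (the filter at all 8 arrays, the second row alone, and without wild-type 2 or knockout 6, 7 or 8, the arrays on which it was well above background). No paired analysis was possible because the groups share no replicate numbers.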
